A study of Mus musculus with 6 samples.

Results

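The proteasome genes of cultured mouse T cells were followed across 6 messenger RNA libraries. All rows whose symbol began with Psma, Psmb, Psmc, Psmd or Psme and a digit were taken, without the immunoproteasome genes Psmb8, Psmb9 and Psmb10, the activator genes Psme1 and Psme2, and pseudogenes marked as such. This gave 40 of the 24493 genes in the table. Of these, 38 encode constitutive proteasome subunits, relatives of them, or factors bound to the particle. The other 2 share only the letters of the name: Psmc3ip encodes a recombination factor, and Psme2b is a second copy of the activator gene Psme2. The 38 were grouped as 8 alpha ring, 8 beta ring, 6 ATPase, 3 base, 8 lid, 3 assembly or associated and 2 activator genes.

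The libraries were 3 labelled WT and 3 labelled Ifnar1-SA, all made from CD4 T cells of the spleen that were naive at isolation and were then driven towards regulatory T (Treg) cells in culture. The product of Ifnar1 is 1 subunit of the receptor for type I interferons. In published work SA names a knock-in allele whose receptor carries alanine in place of a serine needed for its ubiquitin-driven degradation, so that it is spared. The sources used here name no strain, age, sex, culture agent or batch. Nor do they tell whether replicate libraries stem from different animals or cultures, and p-values therefore speak of the spread among these 6 samples alone, which may be technical. In bulk RNA, fewer cells of a type and less RNA per cell cannot be told apart. Expression was given as TPM, the share of all transcripts after correction for transcript length, scaled so that each library has the same total. It can be compared between genes within a library but keeps no sequencing depth.

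The proteasome is the cell's main machine for breaking down proteins tagged with ubiquitin. Its barrel, the 20S core, is built of outer alpha rings, which gate the entry, and inner beta rings, which hold the cutting sites. The 19S particle caps the barrel: a ring of ATPases unfolds the substrate, the base binds ubiquitin, and the lid removes the ubiquitin chain. In lymphocytes, interferons can replace the cutting subunits of new particles with immunosubunits. T cells raise proteasome content when they grow and divide, and Treg and effector T cells depend on it.

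A few facts on the whole series bear on these values. Foxp3, the transcription factor that defines Treg cells, was at 0.276 to 1.82 TPM, Il2ra at 359 to 444 TPM, and Cd4 at 108 to 124 TPM. The defining factor of the labelled cell type was thus near the floor, while Il2ra and Cd4 were abundant. The rest of the 8 Treg markers listed were mixed. Tnfrsf18 was at 2371 to 3238 TPM and Ctla4 at 482 to 876 TPM. Ikzf4 was at 5.27 to 8.96 TPM, Lrrc32 at 1.10 to 2.73 TPM, Ikzf2 at 0.792 to 1.97 TPM and Itgae at 0.669 to 1.42 TPM. WT 2 and Ifnar1-SA 1 stood apart in some short RNAs. The small RNA gene Rn4.5s was at 3846 and 2978 TPM there and at 14249 to 20882 TPM in the other 4 libraries. Both libraries are therefore left out together in an added comparison, chosen after the data were seen. The entry Mir6236 was at 118851 TPM in WT 2, 95484 TPM in Ifnar1-SA 1 and 65232 TPM in WT 1. In the remaining libraries it was at 84532 to 87650 TPM. Since each library has the same total, a larger share for this entry leaves less for all other genes. Its bearing on the proteasome values was not tested. Of the 12141 genes whose mean reached 1 TPM, 7 passed an adjusted p of 0.05 between the genotypes (limma), and 379 had an unadjusted p under 0.05. The summed levels of the 4 B cell markers (3.48 to 11.3 TPM) and 5 myeloid markers (8.79 to 14.7 TPM) were low in every library. The 5 CD8 T and NK cell markers summed to 914 to 2684 TPM (WT) and 1677 to 2496 TPM (Ifnar1-SA), nearly all of it from Nkg7. Of the same list, Cd8b1 was at 9.07 to 15.4 TPM, Cd8a at 1.55 to 4.26 TPM, and Klrd1 and Ncr1 were under 1 TPM in every library.

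Transcripts of the constitutive proteasome were abundant in both genotypes and none of them differed between the genotypes by the test used. The 37 subunit and associated genes that passed the filter on low values summed to 8073 ± 1423 TPM for WT and 8561 ± 963 TPM for Ifnar1-SA (SD, 3 libraries each). That is 0.807% and 0.856% of all transcripts. Of the 39 matched genes tested, 0 rose and 0 fell at an adjusted p of 0.05 (limma over all 12141 genes, adjusted p = 0.9997 for the lowest), beside 0.0577% of all genes called (0.0165% higher and 0.0412% lower in Ifnar1-SA). An unadjusted p under 0.05 was reached by 0 of the 39, beside 3.12% of all genes. Among the alternatives it was reached by Psma3, Psmc6 and Psme4 with quantile scaling, by Psma3, Psma5 and Psmb5 without WT 1 and by Psmc6 without Ifnar1-SA 1, with an adjusted p of at least 0.606 (limma). The libraries of the genotypes overlapped for all 39, while they did not overlap for 5.77% of all genes tested. Differences on the log2 scale lay between −0.34 (Psmc6) and 0.34 (Psma5). The test does not show that the levels were equal. The widest 95% intervals reached −0.78 for Psmc6 and 0.92 for Psma5.

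**Figure D1:**
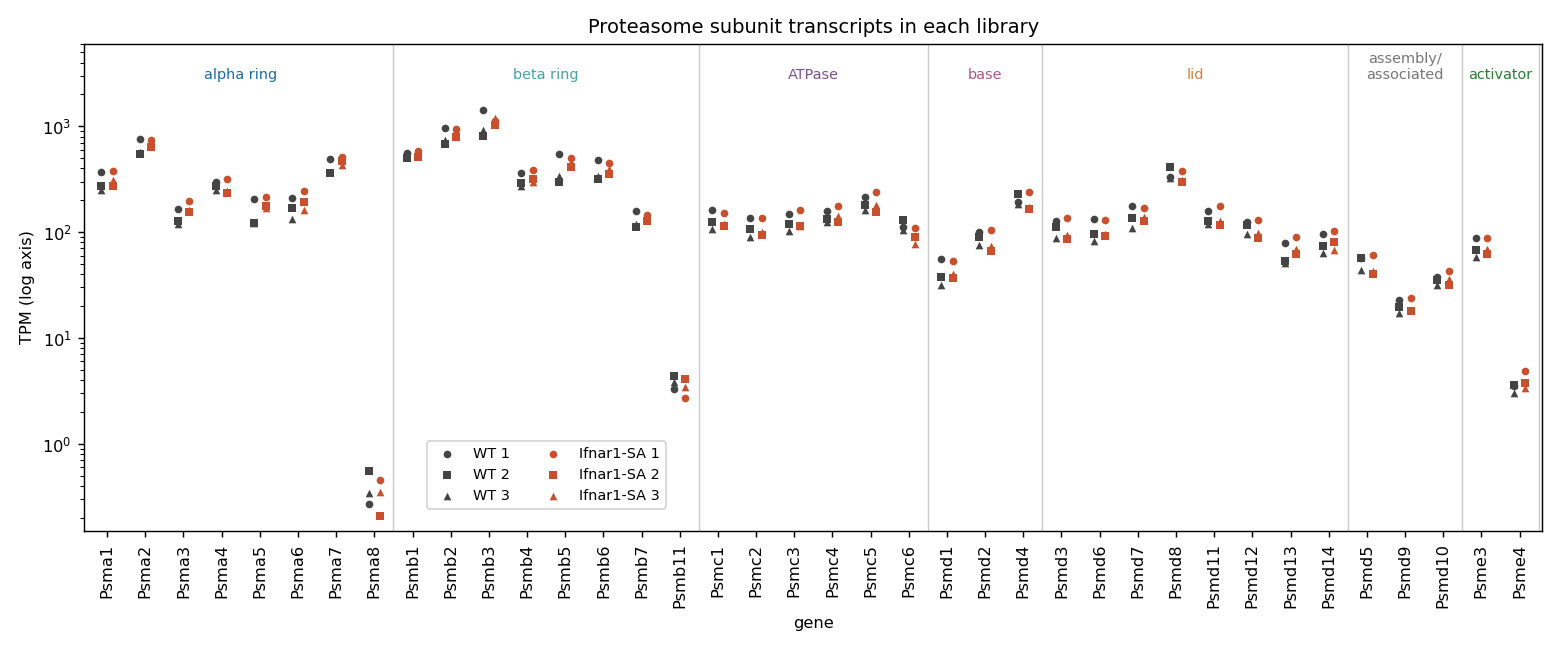
TPM on a log axis for each of the 38 proteasome genes in every library, grouped by role. Dark symbols are WT and orange symbols Ifnar1-SA, and the symbol's shape gives the replicate number. The genotypes overlap at every gene, mean levels run from 1081 TPM for Psmb3 to under 1 TPM for Psma8, and the replicate 1 circles are often the highest points.

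The alpha ring genes were expressed at unequal levels, in an order that hardly changed between libraries. Psma2 had the highest mean, at 654 TPM over the 6 libraries, and Psma3 the lowest of the broadly expressed ones, at 154 TPM. The ratio of Psma2 to Psma3 was 4.24, and it ran from 3.80 to 4.74 in single libraries. Psma7, Psma1, Psma4, Psma6 and Psma5 lay between them, with means of 441, 308, 269.7, 185 and 168 TPM.

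Between the genotypes, Psma3 and Psma5 had the smallest p of the ring. Psma5 (GRCm38 chr3:108256926-108279974, plus strand) was at 206, 122 and 122 TPM in libraries WT 1 to 3 and at 214, 176 and 168 TPM in libraries Ifnar1-SA 1 to 3. WT 1 lay within the Ifnar1-SA range, and the other 2 WT libraries were below all of it. The log2 difference was 0.34 (standard error 0.24, 95% interval −0.23 to 0.92, limma adjusted p = 0.9997). Psma3 (GRCm38 chr12:70974621-70996347, plus strand) was at 165, 128 and 121 TPM (WT) and 196, 156 and 160.1 TPM (Ifnar1-SA). WT 1 was above 2 of the Ifnar1-SA libraries, and the log2 difference of Psma3 was 0.31 (standard error 0.18). Psma2 was at 751, 551 and 571 TPM (WT) and 745, 635 and 672 TPM (Ifnar1-SA), with WT 1 the highest of the 6. Psma8, which encodes the form of the Psma7 subunit used in male germ cells, was under the filter at 0.267, 0.549 and 0.345 TPM (WT) and 0.453, 0.209 and 0.352 TPM (Ifnar1-SA). Its coding sequence shares 74.8% of aligned bases with that of Psma7, and the split of reads between this pair was not tested.

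Among the beta ring genes, the non-catalytic Psmb3 was the most abundant of all proteasome genes. Psmb3 (GRCm38 chr11:97703399-97713500, plus strand) was at 1414, 817 and 923 TPM in libraries WT 1 to 3 and at 1117, 1027 and 1191 TPM in libraries Ifnar1-SA 1 to 3. WT held both the highest and the lowest library. Psmb2, another structural subunit, was at 966, 683 and 738 TPM (WT) and 938, 794 and 925 TPM (Ifnar1-SA), again with WT 1 highest and WT 2 lowest. Psmb1 varied least of the 37 genes tested, with a coefficient of variation of 6.46% over the 6 libraries, against 23.5% for Psma5, which varied most. Psmb4 was at 311 ± 47.9 TPM over the WT and 334 ± 46.4 TPM over the Ifnar1-SA libraries.

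The cutting subunits are Psmb6 (caspase-like activity), Psmb7 (trypsin-like) and Psmb5 (chymotrypsin-like, the main target of proteasome inhibitor drugs). Psmb5 (GRCm38 chr14:54614119-54618022, minus strand) was at 549, 300.4 and 337 TPM in libraries WT 1 to 3 and at 497, 417 and 463 TPM in libraries Ifnar1-SA 1 to 3. WT 1 was the highest and the other WT libraries were the lowest, so the WT range enclosed that of Ifnar1-SA. The log2 difference was 0.26 (standard error 0.24, 95% interval −0.32 to 0.84). Psmb6 (GRCm38 chr11:70525367-70527858, plus strand) was at 483, 314 and 340.0 TPM (WT) and 446, 357 and 396 TPM (Ifnar1-SA), the same order of libraries as for Psmb5, with a log2 difference of 0.096. Psmb7 was the least abundant of the broadly expressed beta genes, at 159, 113 and 119.5 TPM (WT) and 145, 126 and 133 TPM (Ifnar1-SA). The ratio of Psmb3 to Psmb7 was 8.16, although each complete core holds these subunits in equal number. Psmb11, which replaces Psmb5 in the thymic epithelium, was at 3.28, 4.39 and 3.84 TPM (WT) and 2.72, 4.08 and 3.42 TPM (Ifnar1-SA). It was the only gene of the ring with its 2 lowest values in WT 1 and Ifnar1-SA 1. The protein-coding genes Psmb5 and Psmb11 are neighbours on chromosome 14 in opposite directions, and their coding sequences share 65.2% of aligned bases.

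The cutting subunits were also set against the immunosubunits that take their places, as ratios of TPM within a library. The ratio of Psmb8 to Psmb5 was 2.44, 4.38 and 3.37 in WT and 3.48, 2.86 and 2.95 in Ifnar1-SA. Psmb8 transcripts were thus more abundant than those of Psmb5 in all 6 libraries, and the WT range enclosed the Ifnar1-SA range (exact two-sided permutation p = 0.8, adjusted over the 3 ratios 0.8). For Psmb9 to Psmb6 the ratio was 1.03, 1.78 and 1.51 in WT and 1.75, 1.54 and 1.65 in Ifnar1-SA (exact permutation p = 0.5, adjusted 0.75). For Psmb10 to Psmb7 it was 0.972, 1.05 and 0.958 in WT and 1.15, 0.988 and 1.13 in Ifnar1-SA (exact permutation p = 0.2, adjusted 0.6). The smallest p that 3 against 3 libraries can give is 0.1. The log2 difference in the Psmb8 to Psmb5 ratio was −0.098, and it turned positive without WT 2 (0.10). It was also positive without both WT 2 and Ifnar1-SA 1 (0.018).

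**Figure D2:**
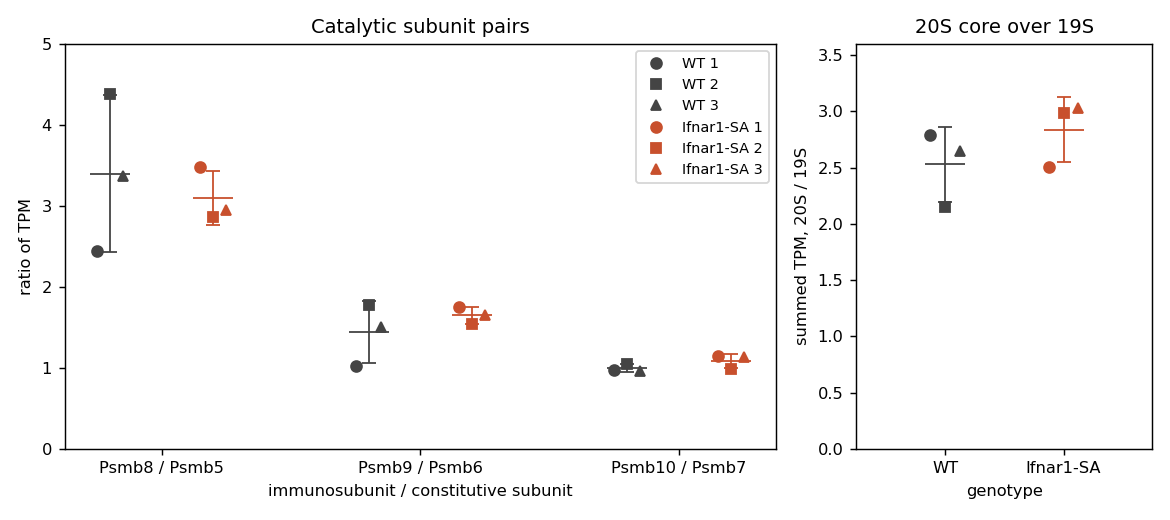
Left, the ratio of TPM of each immunosubunit to the constitutive subunit it replaces, and right, the summed TPM of the 20S core over that of the 19S particle, for each library, with the mean and SD of 3 libraries per genotype as lines. The genotypes overlap in all 4 ratios, and WT 2 is the highest in the Psmb8 to Psmb5 ratio and the lowest in the core ratio.

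The 6 ATPase genes were the most even group in level. Their means ran from 104 TPM (Psmc6) to 188 TPM (Psmc5), a ratio of 1.81. Psmc5 was at 216, 179.9 and 162 TPM (WT) and 237, 156 and 179 TPM (Ifnar1-SA). Psmc4 was at 159.8, 134 and 126 TPM (WT) and 178, 124 and 141 TPM (Ifnar1-SA). For both, Ifnar1-SA 1 was the highest and Ifnar1-SA 2 the lowest. Psmc1, Psmc2 and Psmc3 had log2 differences of −0.019, −0.015 and 0.071.

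Psmc6 was the ATPase gene that went its own way. It encodes the Rpt4 subunit (GRCm38 chr14:45329788-45349705, plus strand) and was at 112, 131 and 104 TPM in libraries WT 1 to 3 and at 110.0, 89.0 and 77.0 TPM in libraries Ifnar1-SA 1 to 3. WT 2 was the highest library, and Ifnar1-SA 2 and Ifnar1-SA 3 were below all of WT, while Ifnar1-SA 1 lay within the WT range. The log2 difference of −0.34 with a standard error of 0.19 had the smallest p of all the proteasome genes tested (limma unadjusted p = 0.115, adjusted p = 0.9997). It was −0.47 without Ifnar1-SA 1, where the unadjusted p fell under 0.05, and the adjusted p was then 0.761. Over all alternatives the difference stayed negative, and the lowest adjusted p was 0.736, without WT 1.

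In the base, Psmd1 and Psmd2 encode the large scaffold subunits Rpn2 and Rpn1, and Psmd4 encodes Rpn10, a ubiquitin receptor. Psmd4 was the most abundant of them, at 192, 231 and 184 TPM in libraries WT 1 to 3 and at 237, 165 and 172 TPM in libraries Ifnar1-SA 1 to 3. The highest libraries were Ifnar1-SA 1 and WT 2. Psmd1 was the least abundant, at 55.5, 37.8 and 31.9 TPM (WT) and 53.1, 36.5 and 39.8 TPM (Ifnar1-SA), with WT 1 and Ifnar1-SA 1 highest. Psmd2 was at 101, 90.4 and 75.5 TPM (WT) and 106, 66.0 and 74.4 TPM (Ifnar1-SA). Their log2 differences were −0.093, 0.066 and −0.14, each smaller than its standard error, and that of Psmd4 was 0.013 with median-of-ratios scaling.

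The lid genes ranged from 67.2 TPM (Psmd13) to 342 TPM (Psmd8) in mean level. Psmd8, a structural lid gene, was at 335, 409 and 321 TPM in libraries WT 1 to 3 and at 378, 298 and 308 TPM in libraries Ifnar1-SA 1 to 3, with WT 2 the highest. Psmd13, also structural, was at 78.2, 53.0 and 51.0 TPM (WT) and 90.7, 61.8 and 68.5 TPM (Ifnar1-SA). WT 1 was above 2 of the Ifnar1-SA libraries, and the log2 difference of Psmd13 was 0.28 (standard error 0.23). Psmd14 encodes Rpn11, the enzyme that cuts the ubiquitin chain off the substrate. It was at 95.1, 74.4 and 64.0 TPM (WT) and 101, 80.9 and 67.1 TPM (Ifnar1-SA), so that each genotype held libraries above 90 and below 70 TPM. Psmd3, Psmd6, Psmd7, Psmd11 and Psmd12 had log2 differences from −0.11 (Psmd12) to 0.073 (Psmd7).

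Factors that help to build the 19S particle, and the alternative caps, were mostly less abundant than the subunits. The assembly chaperone gene Psmd5 was at 56.7, 57.5 and 43.8 TPM (WT) and 61.4, 39.9 and 43.2 TPM (Ifnar1-SA), with Ifnar1-SA 1 the highest and Ifnar1-SA 2 the lowest. Psmd9, another such chaperone, was at 22.9, 19.4 and 17.0 TPM (WT) and 23.6, 17.9 and 18.3 TPM (Ifnar1-SA), and Psmd10, which encodes gankyrin, was at 37.5, 34.9 and 31.5 TPM (WT) and 42.4, 32 and 36.2 TPM (Ifnar1-SA). In both, the replicate 1 library was the highest of its genotype. Psme3 encodes the nuclear activator PA28-gamma and was at 88.5, 68.5 and 58.6 TPM (WT) and 88.9, 62.6 and 68.7 TPM (Ifnar1-SA). Psme4 encodes the activator PA200 and was low, at 3.52, 3.57 and 3.04 TPM (WT) and 4.89, 3.71 and 3.38 TPM (Ifnar1-SA). The log2 differences of Psme3 and Psme4 were 0.035 and 0.18. The genes matched by letters alone also overlapped between the genotypes: Psmc3ip was at 20.2, 17.5 and 14.9 TPM (WT) and 26.5, 17.3 and 15.6 TPM (Ifnar1-SA), and Psme2b at 22.9, 42.0 and 23.5 TPM (WT) and 33.2, 22.7 and 25.1 TPM (Ifnar1-SA). The coding sequences of Psme2b and Psme2 are 99.3% identical, so the reads of Psme2b cannot be told apart from those of the far more abundant Psme2 with certainty.

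By role group and with all 6 libraries, the 20S genes had slightly positive and the 19S genes near-zero median differences. For the beta ring this depended on the libraries used. The median log2 difference was 0.21 for the 7 alpha ring genes tested, 0.10 for the 8 beta ring genes, 0.0055 for the 6 ATPase genes, −0.093 for the 3 base genes and 0.045 for the 8 lid genes. With 1 library left out the median ran from 0.084 to 0.35 for the alpha ring and from 0.0064 to 0.25 for the beta ring. Without WT 2 the beta ring median, 0.0064, was beside 0.0075 for the lid genes. Without both WT 2 and Ifnar1-SA 1 it was 0.078 for the alpha ring and −0.026 for the beta ring. The ATPase, base and lid medians were then −0.16, −0.16 and −0.13. Over all 37 genes and all 6 libraries the median log2 difference was 0.066, beside −0.056 over all genes tested. A positive difference was found for 26 of the 37 genes and for 37.1% of all genes tested. The count was 31 with median-of-ratios scaling and 27 with quantile scaling. It fell to 13 without Ifnar1-SA 1, 16 without WT 3 and 9 without both WT 2 and Ifnar1-SA 1, and the median was then −0.058, −0.037 and −0.10. Without WT 1 the median was 0.21 and without Ifnar1-SA 2 it was 0.16. All genes tested moved too, with a median of −0.15 without Ifnar1-SA 1, −0.11 without WT 3, −0.068 without WT 1, −0.020 without Ifnar1-SA 2 and −0.084 without both WT 2 and Ifnar1-SA 1. The median of the 37 genes minus that of all genes was 0.12 with all libraries. It was 0.0097 (without WT 2) to 0.27 (without WT 1) with 1 library left out and −0.019 without both WT 2 and Ifnar1-SA 1.

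**Figure D3:**
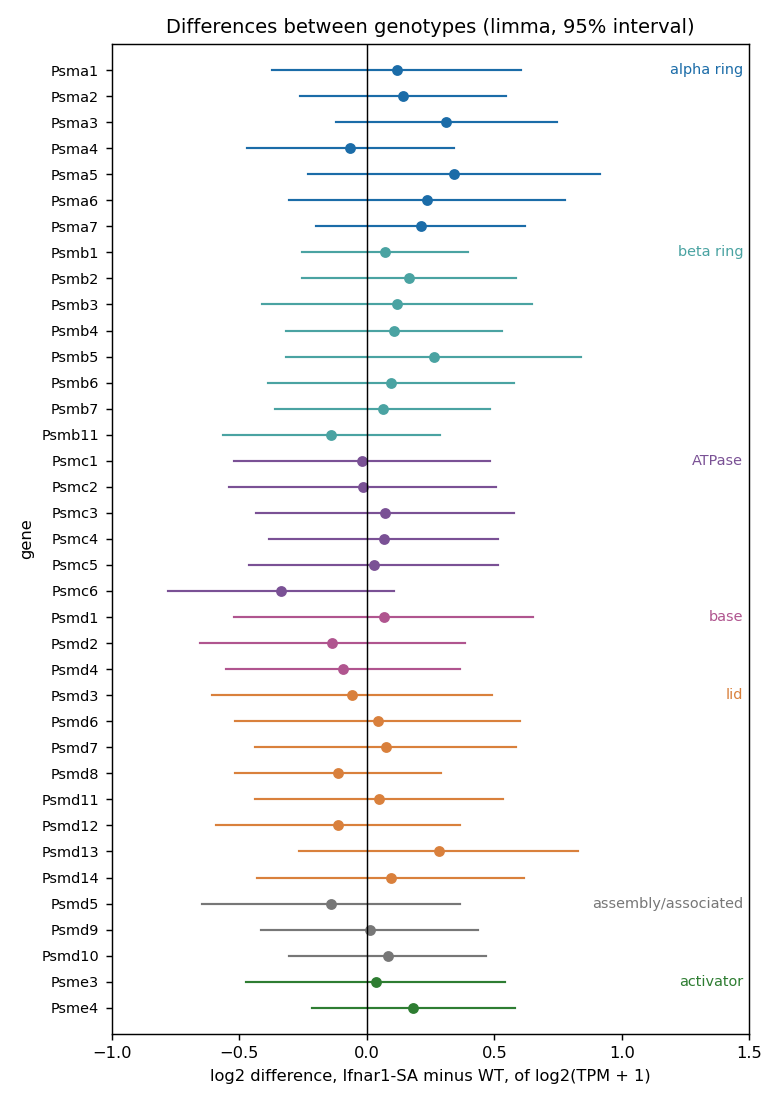
The log2 difference between Ifnar1-SA and WT of each of the 37 genes tested (points) with its 95% interval from limma (lines), coloured by role group. Every interval includes 0. Psma5 has the largest positive value (0.34) and Psmc6 the most negative (−0.34).

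The balance of core and cap transcripts was described in the same way, without a test. The summed TPM of the 20S genes over that of the 19S genes was 2.79, 2.15 and 2.65 in WT and 2.50, 2.98 and 3.03 in Ifnar1-SA. WT 2 and Ifnar1-SA 1, the libraries that stood apart in short RNAs, had the lowest ratio of their genotype, and whether this bears on the ratio was not tested. Over all 6 libraries the genotypes overlapped. The other 2 libraries of each genotype did not, at 2.79 and 2.65 against 2.98 and 3.03. That selection was made after the data were seen, and 2 against 2 libraries can readily separate by chance. Sem1, a small lid subunit gene not taken by the rule, was at 714 and 727 TPM in WT 2 and Ifnar1-SA 1 and at 1345 to 1393 TPM in the other 4.

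The pattern that the proteasome genes shared was one between libraries and not between genotypes. WT 1 and Ifnar1-SA 1 were the 2 highest libraries for 30 of the 37 genes (81.1%), as they were for 18.2% of all genes tested. In Ifnar1-SA 1, 36 of the 37 genes were above their own mean over the 6 libraries, and in WT 1 33 were. The count was 12 in Ifnar1-SA 3, 9 in WT 2, 7 in Ifnar1-SA 2 and 2 in WT 3. For all genes tested the shares above the own mean were 75.0% in Ifnar1-SA 1 and 50.6% in WT 1. They were 21.7% in Ifnar1-SA 3, 73.0% in WT 2, 27.7% in Ifnar1-SA 2 and 36.3% in WT 3. Without WT 2 and Ifnar1-SA 1, WT 1 was the highest of the 4 libraries left for 35 of the 37 genes (94.6%), beside 44.1% of all genes tested. WT 2 held most of the genes tested above their mean but only 9 of the 37 proteasome genes. High values in WT 1 and Ifnar1-SA 1 were not particular to the 37 genes. Of the 39 genes of the wider pathway listed below, 31 (79.5%) were above their own mean in WT 1 and 31 in Ifnar1-SA 1. In WT 2, 24 of the 39 were.

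The median deviation of the 37 genes from their own means was 0.28 in Ifnar1-SA 1 and 0.21 in WT 1 on the log2 scale, and −0.20 in WT 3, the lowest. For all genes tested it was 0.17, 0.0030 and −0.068 in these libraries. The sum of the 37 genes reached 9710 TPM in library WT 1 and 9630 TPM in library Ifnar1-SA 1, and lay between 7135 and 8291 TPM in the other 4. The 7 alpha ring genes tested, the 6 ATPase genes and 7 of the 8 beta ring genes were above their own mean in both of these libraries. The exceptions to the shared order were Psmb3, Psmb11, Psmc6, Psmd4, Psmd8, Psmd5 and Psme4.

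**Figure D4:**
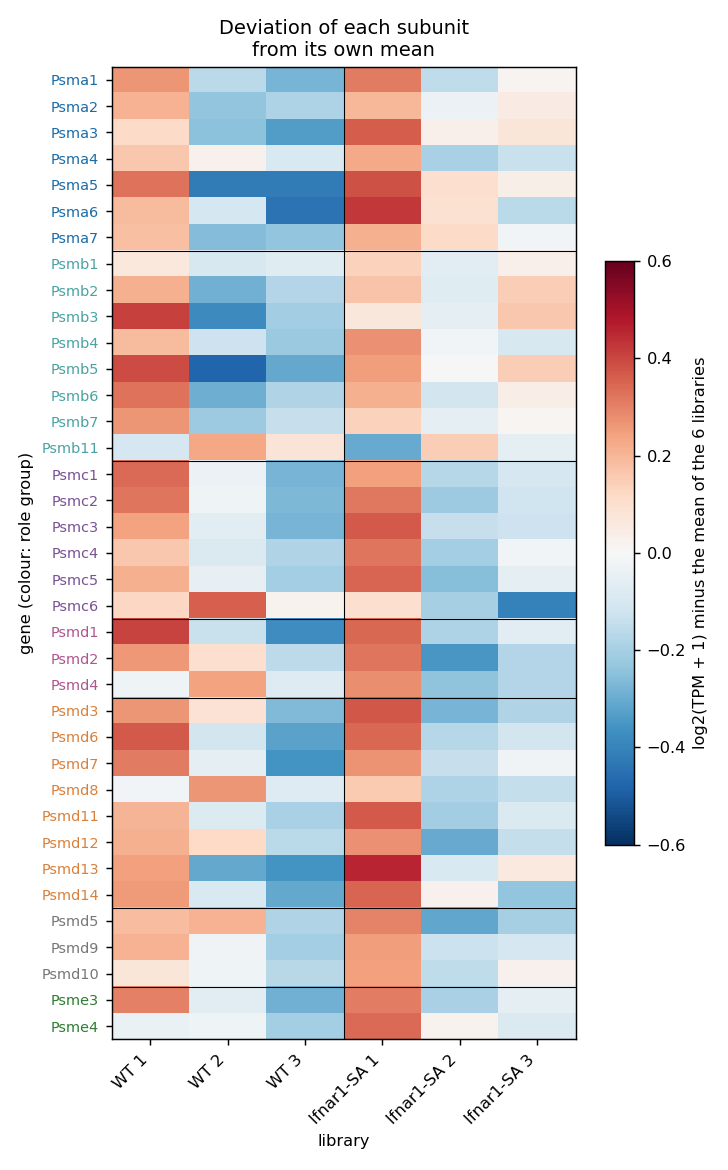
Each cell gives the log2(TPM + 1) of 1 gene in 1 library minus that gene's mean over the 6 libraries, red above and blue below, with gene names coloured by role group. The columns of WT 1 and Ifnar1-SA 1 are red for nearly all genes, WT 3 is blue for nearly all, and Psmb11, Psmc6, Psmd4 and Psmd8 are red in WT 2.

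Pearson's r of log2(TPM + 1) over the 6 libraries, given as a description since the genes share libraries and scaling, had a median of 0.79 over the 666 pairs of the 37 genes. Over all pairs of genes tested it was 0.29. Over the 4 libraries without WT 2 and Ifnar1-SA 1 it was 0.84 for the 37 genes and 0.11 for all pairs of the 12062 genes that varied there. Within the ATPase, alpha ring, beta ring and lid groups the median was 0.94, 0.86, 0.85 and 0.85, and between 20S and 19S genes it was 0.73. The share of pairs with an r over 0.5 was 66.7%, 90.5%, 75.0% and 82.1% within these groups, in the same order. It was 78.1% over all pairs of the 37 genes and 36.2% over all pairs of genes tested. The genes least in step were Psmb11 (median r with the others −0.77), Psmc6 (0.22), Psmd8 (0.35) and Psmd4 (0.46). The most in step was Psma1 (0.89). The order of the genes by level was stable, with Spearman's rho between libraries from 0.967 to 0.995 over the 37 genes.

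The promoters of these genes were also searched for motifs, as a description. In yeast and mammals a dedicated transcription factor raises proteasome gene expression when proteasome activity falls short, and in mammals this factor, Nfe2l1, binds antioxidant response elements. RefSeq windows of GRCm38.p6, from 250 bases before to 50 bases after the start, were matched by symbol for 31 of the 38 genes and searched on both strands. The element's core, TGACNNNGC, was in a window of 6 of the 31 (19.4%), beside 14.0% of the 27025 genes with a window in the RefSeq table, a share near the background. The 6 were Psmb5, Psmb6, Psmc6, Psmd9, Psmd12 and Psme4. The GC box GGGCGG was in 19 of 31 (61.3%, beside 38.2% of all genes with a window). CCAAT was in 13 of 31 (41.9% beside 41.1%), and TATAAA was in 3 of 31 (9.68% beside 15.7%). The windows of 20S genes held CCAAT in 7 of 12 and GGGCGG in 5 of 12, and those of 19S genes in 4 of 14 and 10 of 14. A match describes the letters of the window and not binding, and the background was not limited to genes expressed here. Whether any motif bears on the shared movement of these genes was not tested.

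The stretches before the start are shown for 2 cutting subunits that followed the shared order and for Psmc6, which did not, with the match to TGACNNNGC or its reverse complement in capitals. They stop before the first annotated exon base.
Psmb5 (chr14:54618023-54618245, minus strand): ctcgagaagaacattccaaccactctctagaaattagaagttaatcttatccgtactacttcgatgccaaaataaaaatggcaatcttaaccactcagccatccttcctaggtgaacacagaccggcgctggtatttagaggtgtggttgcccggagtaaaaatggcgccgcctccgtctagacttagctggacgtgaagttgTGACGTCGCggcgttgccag
Psmb6 (chr11:70525107-70525356, plus strand): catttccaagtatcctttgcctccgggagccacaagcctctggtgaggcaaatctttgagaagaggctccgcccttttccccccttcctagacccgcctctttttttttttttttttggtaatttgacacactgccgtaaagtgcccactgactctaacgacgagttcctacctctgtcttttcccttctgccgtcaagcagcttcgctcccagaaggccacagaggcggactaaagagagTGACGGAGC
Psmc6 (chr14:45329574-45329787, plus strand): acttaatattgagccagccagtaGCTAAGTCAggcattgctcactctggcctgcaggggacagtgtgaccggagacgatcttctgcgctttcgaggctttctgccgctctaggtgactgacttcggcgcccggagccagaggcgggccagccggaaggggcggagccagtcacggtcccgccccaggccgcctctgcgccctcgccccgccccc
Counted from the RefSeq start, the match of Psmb5 begins at −47 and that of Psmb6 at −9, both on the gene's strand, and that of Psmc6 at −227 on the other strand.

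The wider pathway was read from a list of 39 genes, all found in the table: immunosubunits, assembly factors, regulators, shuttle factors, ubiquitin genes and the unfoldase Vcp with its partners. Of the 39, 0 rose and 0 fell at an adjusted p of 0.05 (limma), and 1, Psme2, had an unadjusted p under 0.05, beside 3.12% of all genes. The genotypes did not overlap for 2 of the 39, Psme2 and Uba6, beside 5.77% of all genes, so both counts were near the background. The median log2 difference was −0.060, near that of all genes. Psme2, a subunit of the interferon-induced activator PA28, was at 685, 584 and 648 TPM (WT) and 899.9, 706 and 969 TPM (Ifnar1-SA), without overlap (log2 difference 0.42, adjusted p = 0.9997). The immunosubunit gene Psmb9 was at 496, 559.6 and 513 TPM (WT) and 781, 549.8 and 654 TPM (Ifnar1-SA), with Ifnar1-SA 2 within the WT range.

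Genes that control proteasome gene expression were less abundant than most subunit genes. Nfe2l1 itself was at 18.6, 21.1 and 14.5 TPM (WT) and 19.1, 14.0 and 12.6 TPM (Ifnar1-SA). Its relative Nfe2l2, which drives the oxidative stress response, was at 10.8, 19.4 and 14.7 TPM (WT) and 12.3, 8.0 and 8.58 TPM (Ifnar1-SA), with a log2 difference of −0.57 and a standard error of 0.25. Ddi2, the protease that activates Nfe2l1, was at 6.60, 10.5 and 6.68 TPM (WT) and 7.17, 3.84 and 5.33 TPM (Ifnar1-SA). In all 3, WT 2 was the highest library. The shuttle factor gene Ubqln1 was at 34.7, 35.9 and 29.0 TPM (WT) and 30.7, 22.5 and 24.8 TPM (Ifnar1-SA), and Uba6, a second ubiquitin-activating enzyme, was at 2.87, 3.12 and 2.49 TPM (WT) and 2.32, 2.47 and 2.24 TPM (Ifnar1-SA), without overlap. Pomp, which helps to close the core, was at 687, 507 and 517 TPM (WT) and 624, 646 and 584 TPM (Ifnar1-SA).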

How the data were processed

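The values are TPM per gene as deposited, for 24493 symbols in 6 columns, each matched to 1 sample by title. Per the labels' protocols, RNA came from a miRNeasy extraction. Per the submitters' processing notes, Salmon was used, and both mm10 and GRCm38 are named as builds. Which version of Salmon, annotation and filters were used is not stated there or in the labels. Since TPM keeps no read depth, counting intervals are not given.

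Values were tested as log2(TPM + 1), a scale that understates changes of low genes, for the 12141 genes whose mean reached 1 TPM. The test was limma 3.58.1 in R 4.3.3 with an intensity trend, two-sided, without a replicate block, Benjamini-Hochberg adjusted over all genes tested, threshold 0.05. It was tested on simulated data. Subunit ratios were compared by exact permutation tests (scipy 1.17.1). Coding identity came from global alignment of the longest reading frames of GENCODE M21 transcripts (biopython 1.88), and positions from that annotation.

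The proteasome genes and the lists were chosen with earlier results of these data known. Given in full were the cutting subunits, Psmd4, Psmd14, the activators, Psma8 and Psmb11, the highest, the lowest and the 2 genes of smallest p in each role group, and the 6 pathway genes of smallest p. Psmb1, Psmb4, Nfe2l1, Pomp, Sem1, Psmc3ip and Psme2b were added after their values were seen. Alternatives were pseudocounts of 0.1 and 0.5, no filter and at least 5 TPM, median-of-ratios and quantile scaling, no trend, leaving out each library in turn, and a block for the replicate number. Leaving out both WT 2 and Ifnar1-SA 1 was added after the data were seen. Some genes of the pathway list are not reported here.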

Additional observations from a re-analysis of the deposited data

How the results depend on the processing

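The count of 0 proteasome genes past the threshold stayed at 0 under all 15 alternatives. The count over all genes, 7, was 15 and 14 with pseudocounts of 0.1 and 0.5, 1 with at least 5 TPM, 0 with a replicate block, 0 without WT 2 and Ifnar1-SA 1, and 15 to 28 with 1 library left out. It was 2 higher and 5 lower as reported, 1 and 5 with median-of-ratios scaling, and 1 and 6 with quantile scaling. Whether the same replicate numbers pair the samples is not given in the sources. The deviations of same-numbered libraries from their genotype means had an r of −0.11, −0.11 and 0.15, which cannot settle it. No proteasome gene was called with the replicate block. The median difference of the 37 genes was −0.058 to 0.21 with 1 library left out. Positive differences were found for 26 of the 37 as reported, 9 without WT 2 and Ifnar1-SA 1, and 31 with median-of-ratios scaling. Values of single genes were compared between settings only for the genes planned to be given in full. The changes of sign listed next are therefore not the full set for the 37 genes. Leaving out 1 library also took log2 differences across 0, with ranges of −0.042 to 0.35 for Psmb3, −0.026 to 0.28 for Psmb6, −0.033 to 0.21 for Psmb7, −0.077 to 0.19 for Psmc4, −0.14 to 0.16 for Psmc5, −0.10 to 0.29 for Psmd1, −0.33 to 0.0049 for Psmd2, −0.26 to 0.0060 for Psmd4, −0.058 to 0.25 for Psmd14, −0.11 to 0.12 for Psmd9, −0.022 to 0.18 for Psmd10, −0.11 to 0.19 for Psme3 and −0.32 to 0.10 for the ratio of Psmb8 to Psmb5. Without WT 2 and Ifnar1-SA 1 the values on the other side of 0 were −0.0040 for Psma2, −0.047 for Psmb3, −0.11 for Psmb6, −0.087 for Psmb7, 0.058 for Psmb11, −0.10 for Psmc4, −0.16 for Psmc5, −0.14 for Psmd1, −0.081 for Psmd14, −0.12 for Psmd9, −0.015 for Psmd10, −0.13 for Psme3 and 0.018 for the ratio of Psmb8 to Psmb5. With median-of-ratios scaling Psmd4 was at 0.013. None of these was past the threshold in any setting, and the cause was not tested. The depth of the libraries is unknown.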

Other observations

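The other pathway genes differed in how closely they followed the mean log2 level of the 37 proteasome genes over the 6 libraries. Pearson's r, a description over 6 libraries that share scaling, was 0.97 for Vcp, the unfoldase that feeds the proteasome and 0.94 for the deubiquitinase Uchl5. It was 0.93 and 0.89 for the assembly factors Psmg3 and Psmg2 and 0.88 for the inhibitor Psmf1. Among the immunosubunits it was 0.88 for Psmb10, 0.83 for Psmb8 and 0.45 for Psmb9. It was 0.80 for the ubiquitin gene Ubb. Rps27a, which encodes ubiquitin joined to a ribosomal protein, went apart (−0.13), as did Sem1 (−0.37) and Nfe2l2 (−0.099). These genes were picked after their values were seen.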
